A study of Allium sativum with 42 samples.

Results

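Bulb and root of garlic (Allium sativum, cultivar Ershuizao) were compared across every gene that reached 1 FPKM in 3 or more of 6 RNA-seq libraries, 3 of bulbs labelled 212 days and 3 of roots labelled 212 days. FPKM counts fragments relative to transcript length in kilobases and to the mapped fragments of the library in M (mega). The rule kept 28849 of the 58219 gene IDs in the deposited table, 49.6%. Both organs came from field-grown plants of the same cultivar, and the labels name no treatment. Bulbs had been sampled at 8 ages from 192 to 227 days, at intervals of 5 days, and 212 days fell within the period of expansion. The growth protocol dates the harvest of the tissues, roots among them, to the day on which 217-day bulbs were taken, so 217-day bulbs were also set against the roots. The whole series held 42 libraries in 14 groups of 3. Nothing in the labels says that replicates were separate plants, and p-values measure only the spread between these libraries, which may be technical.

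Both organs grow below ground but do different work. A garlic bulb is a cluster of cloves, each mainly a swollen storage leaf around a bud, and it fills with fructans and with the sulfur compounds that give garlic its smell. The roots arise from the basal plate and take up water and mineral nutrients. The files pair no gene ID with a name, so no gene function is given here and the organ labels could not be checked against named marker genes. Set against the other libraries instead, the mean 212-day bulb profile was nearest to bulbs at 207 days (r = 0.968, taken over 34160 genes that are no independent replicates) and 222 days (r = 0.967). The mean root profile was nearest to pseudostem, the false stem of rolled leaf bases (r = 0.809), and its r with 212-day bulb was 0.709.

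Depth differed between the organs. Recovered reads, whole reads worked back from the FPKM values, numbered 22.3, 24.4 and 25.5 M in the bulb libraries and 14.4, 14.3 and 12.4 M in the root libraries. Bulb replicates correlated at 0.977 to 0.984 across the 28849 genes. Root replicates were further apart: replicate 3 correlated with replicates 1 and 2 at 0.930 and 0.941, and those 2 with each other at 0.966. Root replicate 3 also had no read for 4 genes at or above 5 FPKM everywhere else, and no other library lacked such a gene. Among 11296 genes with at least 5 FPKM in all 6 libraries, the range among replicates exceeded 4-fold for 18 genes in bulb and 275 in root, and for those 275 replicate 3 was the highest root library in 130 and the lowest in 136.

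Of 28849 genes, 7415 were called higher in bulb (25.7%) and 5307 lower in bulb (18.4%), with limma on log2(FPKM + 1), calling genes at 2-fold or more on that scale (log2 difference 1) whose Benjamini-Hochberg adjusted p was under 0.05. The median log2 difference, bulb minus root, was 1.57 for the higher genes and -2.18 for the lower genes. The median over all genes tested was 0.30, so the higher genes stood 1.27 above it and the lower genes at -2.48 from it. The 3 bulb libraries lay entirely above the 3 root libraries for 7367 of the higher genes, and entirely below them for 5270 of the lower genes. The same 6 libraries made the calls, so this lack of overlap is a description and adds no support to them. The filter counts towards these numbers: 2158 of the tested genes reached 1 FPKM in all 3 bulb libraries and no root library, 1809 in all 3 root libraries and no bulb library, and a gene that passed through a single organ had to differ. All 6 libraries reached 1 FPKM for 19985 genes.

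Larger differences were more often towards root, up to a point. At a log2 difference of at least 2, 2181 genes were higher in bulb and 2956 lower. At 3 or more the counts were 835 and 1645, and at 5 or more 174 and 414. Beyond 8 the order turned again, with 30 genes higher in bulb and 14 lower. The balance of all calls depended on scaling: median-of-ratios scaling moved the median of all genes by -0.25 and gave 5641 higher and 6289 lower genes, so that 47.3% of calls were higher in bulb against 58.3% with FPKM as deposited. Taking bulbs of 217 days as the comparison for root gave 6234 higher genes, 5272 of them called with 212-day bulbs too, and 4396 lower genes, 4026 of them called with 212-day bulbs too. Both comparisons used the same root libraries and the same tested genes, so part of this sharing is built in.

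**Figure D1:**
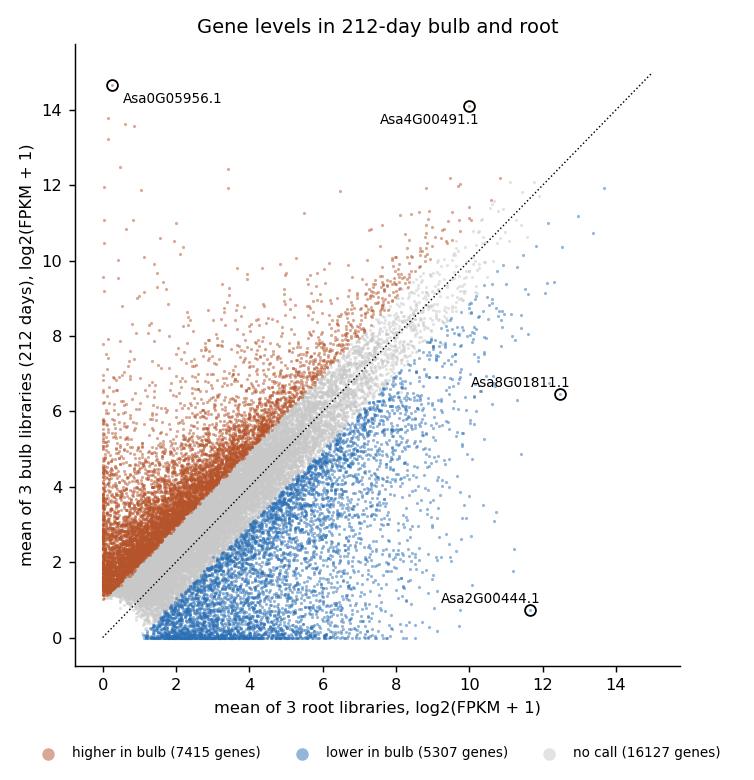
Mean level of each tested gene in the 3 libraries of 212-day bulb (vertical) and of root (horizontal), both as log2(FPKM + 1), with equal levels on the dotted line. The 7415 genes higher in bulb lie above the line, the 5307 lower genes below it, and circles mark the 4 named genes.

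No call was made for 16127 genes (55.9%), of which 4843 had an adjusted p below 0.05 (limma, Benjamini-Hochberg) with a smaller difference than the call needs. For 7178 genes (24.9%) the 95% interval of the log2 difference lay wholly between -1 and 1, so a difference of 2-fold or more on this scale was outside the interval. Of these 7178 genes, 766 were among the 4843. For 314 genes the log2 difference reached 1 but the spread between replicates was too wide for a call.

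With FPKM as deposited, more genes were higher in bulb below a mean of 20 FPKM over the 6 libraries, and more were lower in bulb from 20 to 1000 FPKM. Under 5 FPKM, 27.9% of 10660 genes were higher in bulb and 12.6% lower. From 5 to 20 FPKM the shares were 27.3% and 17.2%. From 20 to 100 FPKM they were 19.99% and 25.1%, and from 100 to 1000 FPKM 23.4% and 32.6%. Among the 128 genes at 1000 FPKM or more, 46 were higher in bulb and 43 lower. Bulb libraries were the deeper ones, and the part of depth in the split among scarce genes was not tested. A fit of recovered reads that weights each value by its counting precision (voom) gave 6941 higher and 6648 lower genes. It also scaled the libraries anew, by a trimmed mean of ratios between them (TMM). The median of all genes moved by -0.20, so weighting and scaling cannot be told apart in these counts.

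**Figure D2:**
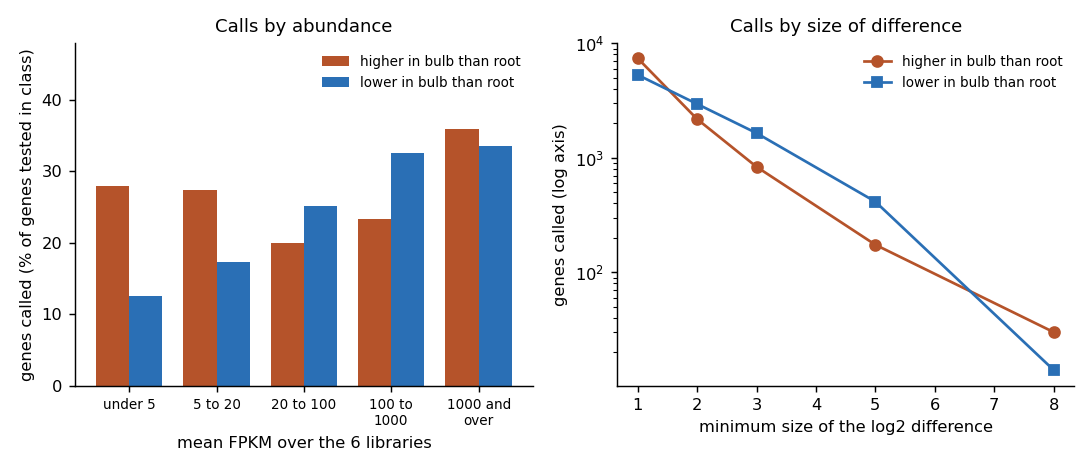
Left, genes called higher (first bar) or lower (second bar) in 212-day bulb than in root, as a percentage of the genes tested in each class of mean FPKM. Right, number of genes called in each direction (log axis) at or beyond a minimum log2 difference: more genes were lower than higher in bulb from 2 to 5, and more were higher at 8.

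The most abundant transcripts of the organs were different genes. None of the 10 most abundant genes of bulb (by mean FPKM) was among the 10 most abundant of root, 31 were shared between the lists of 100, and 504 between the lists of 1000. All 10 leading bulb genes were called higher in bulb, with log2 differences of 1.5 to 14.44, and 6 of them averaged under 1 FPKM in root. The 10 leading root genes were all called lower in bulb, with log2 differences of -6.10 to -1.15, but 0 of them averaged under 1 FPKM in bulb, where they ranged from 87.3 to 3898 FPKM. Among the 100 leading genes of each organ, 64 of the bulb list were called higher in bulb and 67 of the root list lower in bulb. Of the bulb list 11 genes averaged under 1 FPKM in root, and of the root list 1 gene averaged under 1 FPKM in bulb. The lists were ranked on the same libraries that made the calls, which favours calls in the direction of each list. Among all 128 genes averaging 1000 FPKM or more over the 6 libraries, 35.9% were called higher in bulb and 33.6% lower.

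The leading genes took a larger share of the transcript pool in bulb. Summed over its own 100 most abundant genes, a library gave 25.8%, 27.1% and 24.8% of all FPKM in bulb, against 20.3%, 19.5% and 21.1% in root. The bulb libraries were all above the root libraries, with means of 25.9% ± 1.15 and 20.3% ± 0.792 (SD, n = 3 each; exact permutation test, 2-sided p = 0.10, the smallest that 3 against 3 can give). For the 10 most abundant genes the shares were 9.26%, 10.8% and 9.09% in bulb and 5.82%, 5.50% and 5.78% in root, again without overlap. Genes called higher in bulb together held 47.1% ± 1.26 of summed FPKM in bulb and 8.78% ± 0.824 in root. Genes called lower held 8.62% ± 0.119 in bulb and 49.2% ± 1.03 in root. These last shares follow from how the genes were chosen and are given as a description.

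At a minimum of 1 or 5 FPKM, each bulb library detected more genes than any root library, but not at a minimum of 0.5 FPKM. Genes at 1 FPKM or more numbered 26728, 27035 and 27178 in bulb and 25914, 26697 and 24732 in root (exact permutation test, 2-sided p = 0.10, n = 3 each). The highest root library lay close below the lowest bulb library, and the root libraries were far apart, with an SD of 229.9 genes in bulb and 989 in root. Thinning every library to the 12.4 M reads of root replicate 3 left 26666, 26954 and 27127 genes in bulb and 25920, 26652 and 24732 in root. The lowest bulb library (26666) then barely exceeded the highest root library (26652). Only a single random draw was made, so whether the organs stay apart at equal depth is not settled. At a minimum of 0.5 FPKM the organs overlapped, with 29619, 29883 and 29882 genes in bulb and 29036, 29787 and 27874 in root (exact permutation test, 2-sided p = 0.20, n = 3 each). The mean excess of bulb at 1 FPKM was 1199 genes, and it was 674.8 genes without root replicate 3.

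Some genes were read in a single organ. At least 1 FPKM in every bulb library and no read in any root library was found for 233 genes, with means in bulb up to 753 FPKM. The reverse, at least 1 FPKM in every root library and no read in any bulb library, was found for 339 genes, with means in root up to 363 FPKM. At a minimum of 10 FPKM the numbers were 44 for bulb and 84 for root, and at 100 FPKM 3 and 6. Counting depth was sufficient for these genes: had the other organ matched the level seen, each of the 233 would have given at least 14.5 reads over the root libraries and each of the 339 at least 27.4 reads over the bulb libraries. In bulk tissue, fewer cells of a type and less RNA per cell cannot be told apart.

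By a set rule, 4 genes are named: in each direction, the largest log2 difference, and the highest level among genes with a log2 difference of at least 3. Asa0G05956.1 had both the largest difference and the highest level of any gene in bulb, so the next most abundant gene was taken as well. It had 24087, 30227 and 23474 FPKM in bulb replicates 1 to 3, against 0.559, 0 and 0 FPKM in root replicates 1 to 3. It was the leading transcript of all 3 bulb libraries of 212 days, with 2.02%, 2.60% and 2.04% of summed FPKM. The root values rest on 4 reads in replicate 1 and no read in the others. Finding 0 of 14.3 M reads in root replicate 2 allows a share of up to 2.1e-05% of reads (3 counts, counting error only). The log2 difference was 14.44 ± 0.22 (SE, adjusted p = 8.37e-08, limma), and with root so close to 0 it depends on the pseudocount of 1.

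Asa0G05956.1 was higher in late than in early bulbs and was also abundant in flower. Bulbs of 192 days averaged 15.4 ± 7.14 FPKM, bulbs of 197 days 389 ± 167, bulbs of 202 days 5745 ± 1672, bulbs of 207 days 7335 ± 3991 and bulbs of 212 days 25929 ± 3734 (SD, n = 3 each). Later bulbs averaged 30983 ± 32244 FPKM when 217 days old, 78167 ± 8186 when 222 days old and 45939 ± 35338 when 227 days old, with a wide spread among the libraries of the first and last of these ages. In flower it averaged 67875 ± 6607 FPKM. Bud, pseudostem, sprout and leaf averaged 11.3, 5.98, 1.45 and 0.0851 FPKM. Between 227 and 192 days, which share no library with the bulb and root comparison, the log2 difference was 10.90 ± 0.81 (adjusted p = 4.69e-08, limma).

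Asa4G00491.1 was the next most abundant bulb gene, and its level in root varied widely. It had 17264, 18015 and 17577 FPKM in bulb replicates 1 to 3, against 553, 2208 and 292 FPKM in root replicates 1 to 3. The bulb values lay within a narrow band, and the lowest of them stood far above the highest root value. The log2 difference was 4.63 ± 0.66 (adjusted p = 7.35e-04, limma). Unlike the preceding gene it was abundant at every bulb age, with its lowest mean on day 227 (5880 ± 1295 FPKM) and its highest on day 202 (21342 ± 2469; SD, n = 3 each). It also reached high levels in flower (7007 ± 2082 FPKM), bud (6272 ± 480) and sprout (2699 ± 749), lower in pseudostem (518 ± 338), and lowest in leaf (22.2 ± 7.09).

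Asa2G00444.1 showed the largest difference towards root. It had 0.365, 0.443 and 1.16 FPKM in bulb replicates 1 to 3, resting on 3, 4 and 11 reads, against 4998, 2897 and 1755 FPKM in root replicates 1 to 3. The root libraries differed widely among themselves, and none came near the bulb values. The log2 difference was -10.82 ± 0.38 (adjusted p = 2.05e-06, limma). Bulbs were low at each of the 8 ages, with a lowest mean of 0.267 FPKM (day 197) and a highest of 3.99 FPKM (day 222). Other tissues had more of it: leaf averaged 1698 ± 403 FPKM, pseudostem 310 ± 195, sprout 227 ± 150 and flower 160 ± 75.1 (SD, n = 3), with bud at 15.6 ± 6.84.

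Asa8G01811.1 was the most abundant root gene among those with a log2 difference of at least 3. It had 94.9, 118 and 48.6 FPKM in bulb replicates 1 to 3, against 5884, 5263 and 5883 FPKM in root replicates 1 to 3. Here the root libraries were close together and the bulb libraries differed more. The log2 difference was -6.10 ± 0.32 (adjusted p = 8.06e-06, limma). Root stood apart from the other tissues as well: pseudostem came next with 889 ± 138 FPKM, followed by flower with 726 ± 85.4 and leaf with 261 ± 123, and the 8 bulb ages averaged from 3.64 to 154 FPKM. The gene was higher at 227 days (89.7 ± 79.4 FPKM) than at 192 days (5.70 ± 4.14), by 3.41 ± 1.06 on the log2 scale (adjusted p = 0.0141, limma).

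**Figure D3:**
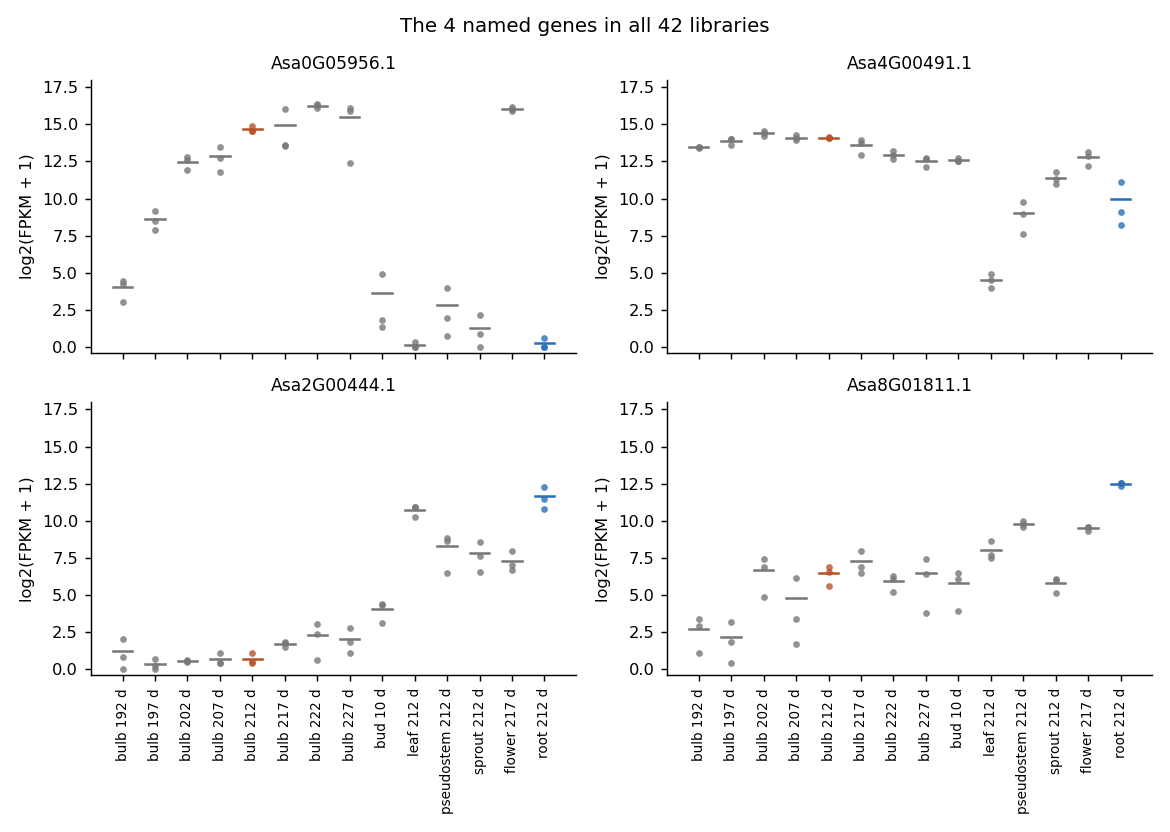
Levels of the 4 named genes as log2(FPKM + 1) in all 42 libraries, with a point per library and a bar at the log2 of the mean FPKM + 1 of 3 replicates. The 212-day bulb and root libraries are coloured, and the upper 2 genes are far above root in bulb while the lower 2 are far below it.

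Genes called between the organs were also followed across the groups that took no part in the choice. The 7415 genes higher in bulb had a median of 11.0 FPKM in 212-day bulb and 2.28 FPKM in root, and between 8.21 FPKM (227 days) and 12.04 FPKM (192 days) at the other bulb ages. The 5307 genes lower in bulb had medians of 2.46 FPKM in 212-day bulb and 25.7 FPKM in root, and between 1.20 FPKM (197 days) and 4.12 FPKM (217 days) at the other ages. Across the 14 groups, the highest mean was in 192-day bulb for 20.8% of the genes higher in bulb, beside 9.46% of the genes with no call. It was in bud for 21.5% of the genes higher in bulb, close to the 21.9% of genes with no call. Of the genes lower in bulb, 11.5% were highest in pseudostem and 12.1% in leaf, beside 7.58% and 14.6% of the genes with no call. Root was highest for 65.1% of the genes lower in bulb and for none of the genes higher in bulb, which follows largely from how the genes were chosen and also limits the other shares.

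The other tissues sided with bulb or root to different degrees. A tissue was put on the bulb side for a gene where its mean lay nearer to 212-day bulb than to root on the log2(FPKM + 1) scale. Of the genes higher in bulb, bud was on the bulb side for 85.7%, sprout for 72.0%, flower for 52.9%, pseudostem for 44.3% and leaf for 32.0%. Of the genes lower in bulb, the shares on the bulb side were 78.9% for bud, 74.9% for sprout, 73.8% for flower, 57.2% for leaf and 45.3% for pseudostem. Leaf and pseudostem thus had the smallest shares on the bulb side in both sets. All 5 tissues were on the bulb side for 1234 of the genes higher in bulb and 1515 of the genes lower in bulb, which leaves root apart from the rest. None of the 5 was on the bulb side for 290 and 208 genes.

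Many genes were under 1 FPKM in an organ and above it elsewhere. Of the genes lower in bulb, 1267 (23.9%) averaged under 1 FPKM at each of the 8 bulb ages, and 522 of these averaged at least 10 FPKM in root. Among the 1267, pseudostem reached 1 FPKM for 594, leaf for 483, flower for 259, sprout for 208 and bud for 175, and 509 reached it in none of these 5 tissues. Of the genes higher in bulb, 2390 (32.2%) averaged under 1 FPKM in root. Bud reached 1 FPKM for 2187 of them, sprout for 1825, flower for 1758, pseudostem for 1421 and leaf for 1071, and 51 reached it in none of the 5. Of the genes with no call, bud reached 1 FPKM for 96.1%, sprout for 94.7%, flower for 91.9%, pseudostem for 94.7% and leaf for 90.9%. Those genes were not chosen for a low level in an organ: 93.8% reached 1 FPKM in root and 97.1% in 212-day bulb. They are therefore no matched baseline, and part of the gap follows from the choice of genes.

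**Figure D4:**
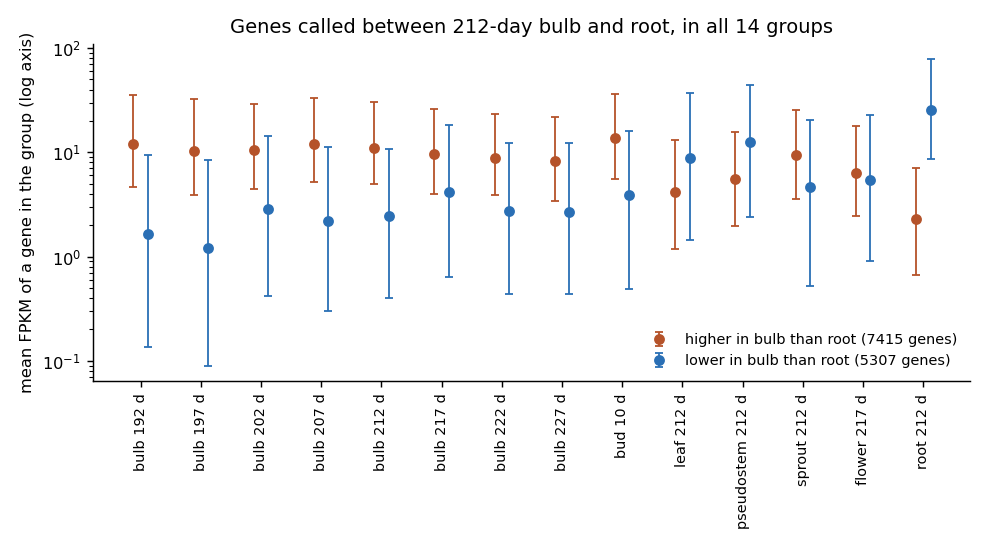
Mean FPKM (log axis) in each of the 14 groups for genes called higher (7415) or lower (5307) in 212-day bulb than in root. Points are medians over genes and bars run from the first to the third quartile. The sets part widely at all bulb ages and in bud, and the set lower in bulb has the higher median in leaf, pseudostem and root.

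Genes that set bulb apart from root were followed through bulb growth in 21 bulb libraries of the 7 other ages, none of which entered the comparison with root. Over all 30244 genes tested there, 8.13% rose and 21% fell, meaning that they passed the same limma thresholds for 227-day against 192-day bulbs. Of the genes higher in bulb than root, 7408 were tested, and 672 rose (9.07%) and 2557 fell (34.5%). Of the genes lower in bulb than root, 3966 of 5307 passed the filter in these bulbs, and 730 rose (18.4%) and 438 fell (11.0%). The median log2 differences over age were -0.58 and 0.23 for the 2 sets, beside -0.29 over all genes tested. Thus the set higher in bulb held a larger share of falling genes than all genes did. The set lower in bulb held a larger share of rising genes and a smaller share of falling ones. In 192-day bulbs, 94.8% of the 7415 genes higher in bulb averaged at least 1 FPKM, against 56.0% of the 5307 lower in bulb. The latter share takes in genes that failed the filter over age, and the share among the 3966 tested was not counted. A gene under 1 FPKM there cannot fall by 1 on the log2(FPKM + 1) scale, which limits the falling share of the second set. The balance within the second set depended on single 227-day libraries: 538 rose and 526 fell without replicate 1, 999 rose and 337 fell without replicate 2, and 607 rose and 526 fell without replicate 3. Without replicate 1, 13.6% of the second set rose and 13.3% fell, against 7.59% and 22.8% of all genes tested. In the first set, 657 rose and 2630 fell without replicate 1, 725 and 2327 without replicate 2, and 664 and 2715 without replicate 3. Median-of-ratios scaling gave 975 and 1862 in the first set and 1029 and 284 in the second, beside 13.0% higher and 13.5% lower among all genes.

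The shares that changed over age differed by the size of the contrast to root. Among genes higher in bulb by 1 to 2 on the log2 scale, 6.31% rose and 29.3% fell over age. By 2 to 3, 12.5% rose and 43.2% fell, and by 3 to 5, 17.1% rose and 55.8% fell. The 174 genes higher by at least 5 were split, with 61 that rose and 76 that fell. Among genes lower in bulb, the share that rose was 13.4% at a difference of 1 to 2, 19.9% at 2 to 3, 25.4% at 3 to 5 and 29.6% at 5 or more, and the share that fell was 13.6%, 10.3%, 7.63% and 4.23% in the same order. The order of these classes was the same without replicate 2 of the 227-day bulbs and with median-of-ratios scaling. Without replicate 1 the share of genes lower in bulb that rose was 10.8%, 14.03%, 19.8% and 14.2% in the same order of classes, and without replicate 3 it was 11.5%, 17.3%, 21.1% and 19.6%, so that it did not climb further in the class of 5 or more. The number that rose in that class was 77 with all libraries and 37 without replicate 1. Genes under 1 FPKM at 192 days could not fall by 1 on the log2(FPKM + 1) scale. The part of this limit in the falling shares was not tested.

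**Figure D5:**
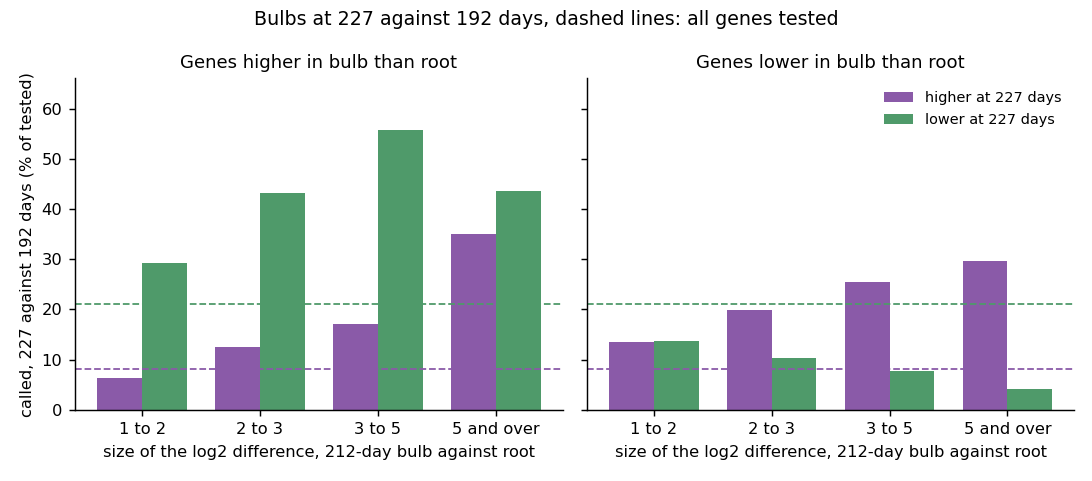
Percentage of genes called higher (first bar) or lower (second bar) at 227 than at 192 days in bulbs of ages other than 212 days, by the size of the log2 difference between 212-day bulb and root. Dashed lines give the shares over all genes tested, 8.13% higher and 21% lower.

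The 10 most abundant genes of 212-day bulb mostly rose with age. Of the 10 bulb genes, 8 rose and 1 fell between 192 and 227 days, and of the 10 root genes 2 rose and 3 fell. Over all 30244 genes tested, 8.13% rose and 21% fell. Choosing genes by a high level in 212-day bulbs favours those that rose after 192 days. The bulb genes together held 1.43% ± 0.0571 of summed FPKM in 192-day bulbs, 9.65% ± 0.980 in 212-day bulbs and 30.4% ± 5.93 in 227-day bulbs (SD, n = 3 each), with 22.2% ± 2.95 in flower and 0.302% ± 0.128 in root. The root genes held 5.54% ± 0.112 in root and from 0.934% to 1.41% on average at the 8 bulb ages. In sprout, pseudostem, leaf, bud and flower the root genes held 3.46%, 3.30%, 3.02%, 2.15% and 1.28%.

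Gene IDs carry a prefix from Asa0G to Asa8G and a running number. What the prefixes stand for is not given in the sources used here, and calls hardly differed between them. The share called higher in bulb ranged from 24.5% (Asa4G) to 27.6% (Asa2G), and the share called lower from 17.1% (Asa5G) to 19.4% (Asa1G). Of the 6020 IDs with the prefix Asa0G, 36.6% passed the filter, against 50.1% to 52.3% for each other prefix.

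IDs with neighbouring numbers tended to go the same way. Leaving aside Asa0G, 3431 pairs of genes with consecutive numbers were both called, and 72.6% of them in the same direction. At a distance of 2 this share was 63.0%, at 10 it was 53.9%, and at 100 it was 52.5%. Among genes with a log2 difference of at least 3, consecutive pairs went the same way in 94.8% of 346 cases, with 104 pairs higher and 224 lower in bulb, beside 62.5% of 112 pairs at a distance of 100. Of these strongly differing genes, 24.4% of the 763 higher and 27.0% of the 1527 lower stood next to another of the same direction, and the longest run held 7 genes higher in bulb. How reads that fit near-identical copies were divided is not known, so the separate values of neighbours that are copies of each other are uncertain.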

How the data were processed

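RNA-seq was done on total RNA from 42 garlic samples. Per the submitters' processing notes, reads were handled with Bowtie2 and RSEM; no version, reference or annotation is given in the sources used here. The authors deposited FPKM per gene ID in 1 column per sample, and 0 columns were left without a sample. FPKM is scaled to each library's mapped fragments, so a few very abundant genes lower the values of all others. Reads were recovered from the deposited FPKM by finding, for every gene in each library, the FPKM that 1 read is worth. Within 0.001, whole numbers came out for all 45750 genes above 0, among them 38950 genes above 0 in at least 10 libraries, and the procedure was tested on simulated data. Recovered reads served for depth, for thinning and for 1 alternative fit.

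The 6 libraries of bulb and root at 212 days were fitted alone with limma 3.58.1 (R 4.3.3) on log2(FPKM + 1), with a variance trend and Benjamini-Hochberg adjustment over the 28849 genes tested. Bulbs at 227 and 192 days were compared in a fit of the 21 bulb libraries of other ages, with the same filter. Library values were compared by exact permutation in Python 3.11.15 with SciPy 1.17.1.

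The rule for named genes took, per direction, the gene with the largest log2 difference (10 FPKM or more on average in the higher organ) and the most abundant one with a difference of at least 3, without overlap of libraries. Lists by gene function could not be applied to unnamed IDs. The members, rules and lists were chosen with earlier results of these data known.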

Additional observations from a re-analysis of the deposited data

How the results depend on the processing

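Every alternative fit kept both counts of calls within 1.5 times: 5132 to 8438 genes higher and 3977 to 6648 lower in bulb than root over 11 settings, lowest with a filter of 5 FPKM, which tests fewer genes (19051). Leaving out each of the 6 libraries in turn gave 6938 to 7827 higher and 4995 to 5703 lower genes. The 4 named genes kept their direction and stayed below an adjusted p of 0.05 in each of these fits (limma). Their log2 differences ranged from 13.94 to 17.11 for Asa0G05956.1, 3.99 to 5.45 for Asa4G00491.1, -12.41 to -9.81 for Asa2G00444.1 and -6.42 to -5.34 for Asa8G01811.1.

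Deviations of bulb and root libraries with the same replicate number correlated at -0.06, 0.07 and -0.10, and those with different numbers at -0.09 to 0.12. These values show no pairing by number, but they cannot tell whether same-numbered libraries shared plants or a batch. With the number as a replicate block, 7395 genes were higher and 5281 lower in bulb, and the counts over age moved by less than 1.5 times.

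With under 0.1 FPKM in place of no read in the other organ, 544 genes rather than 339 were seen in root at 1 FPKM and 134 rather than 84 at 10 FPKM, since that rule admits more genes. For bulb the counts were 344 and 65. Genes lower in bulb that fell over age numbered 284 with median-of-ratios scaling, and 337 to 526 without single libraries of the 192- and 227-day bulbs, when 538 to 999 rose. In the set higher in bulb, 586 to 725 rose and 2327 to 2715 fell without single libraries. The bulb excess in detected genes was 1199 on average, 674.8 to 1657 without single libraries, and 895.7 at a minimum of 0.5 FPKM, where the organs overlapped (exact permutation p = 0.20). At a minimum of 5 FPKM the excess was 1188 and the organs stayed apart. The excess in the share of the 100 most abundant genes, 5.64 percentage points, was 5.03 to 6.18 without single libraries. The leave-one-out of these 2 library values, and the age classes by size, were chosen after seeing the data. Root libraries, at 12.4 to 14.4 M reads, limit what can be said of genes near 1 FPKM.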
